A study of Mus musculus with 4 samples.

Results

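The 40 genes described here encode the machinery that moves newly made secretory proteins between the endoplasmic reticulum (ER) and the Golgi apparatus. They were taken by symbol from a list, out of 23482 genes listed. That list was chosen with earlier results of these data known. There are 13 genes of the COPII coat, 7 of the COPI coat, 8 of the p24 family, 4 cargo receptors, 3 KDEL receptors, and 5 SNARE, tether and Arf genes. They were measured by RNA sequencing of quadriceps from FVB/N mice aged 6 to 8 weeks, in 2 libraries from animals overexpressing Thbs1 from a transgene and 2 from non-transgenic controls. Thbs1 encodes thrombospondin-1, a secreted glycoprotein of the extracellular matrix. The labels name no promoter for the transgene. They also do not state whether each library came from its own animal, so every p-value reflects only how far these samples spread, and that spread may be technical.

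COPII vesicles carry cargo out of the ER. The small GTPase Sar1, once activated on the ER membrane, recruits an inner layer of Sec23 and Sec24, in which Sec24 binds cargo, and an outer cage of Sec13 and Sec31. COPI vesicles, built from coatomer after activation of an Arf GTPase, return membrane and escaped ER proteins from the Golgi. The p24 proteins and lectin-type receptors link cargo in the lumen to these coats, KDEL receptors retrieve ER chaperones, and SNAREs and tethers let vesicles dock and fuse. In several cell types, part of this machinery is induced by the unfolded protein response of the ER through the transcription factors XBP1 and ATF6.

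The sequence just around the start of each gene is shown for members on which the results turn. RefSeq promoter windows on GRCm38.p6, from 250 bases before to 50 bases after the annotated start, were matched to 35 of the 40 members. Kdelr2, Arcn1, Tmed2, Lman1 and Tmed7 were not matched to a window, so they were not searched. Both strands were searched for 4 motifs of the ER stress and amino acid responses. The unfolded protein response element, searched as TGACGTGG, was present in 6 of the 35 windows, or 17.1%, against 193 of 27025 genes with a window, or 0.714%, and 83 of 7365 tested genes with a window, or 1.13%. The other motifs were present in 0 of the 35. They were the ER stress element ERSE (present in 0.137% of all genes with a window), its second form ERSE-II (0.0444%) and the element TGATGNAAT, which binds ATF4 with C/EBP proteins (1.08%). A match is a description of the letters, and ERSE, ERSE-II and the unfolded protein response element share the letters CCACG or their complement. The genes with the unfolded protein response element were Sec24d and Copb2, which rose, Kdelr3, Copb1 and Sec23a, which did not pass the test, and Sec16b, which was too low to test. In the windows of Sec24d, Kdelr3 and Copb2, written 5′ to 3′ along the gene, capitals mark the element, which lies on the reverse strand in Kdelr3 and Copb2 (CCACGTCA). Its first base lies 26 bases before the start in Sec24d (chr3:123267246-123267545, forward strand), 30 before it in Kdelr3 (chr15:79516158-79516457, forward strand) and 7 before it in Copb2 (chr9:98563481-98563780, forward strand).
Sec24d: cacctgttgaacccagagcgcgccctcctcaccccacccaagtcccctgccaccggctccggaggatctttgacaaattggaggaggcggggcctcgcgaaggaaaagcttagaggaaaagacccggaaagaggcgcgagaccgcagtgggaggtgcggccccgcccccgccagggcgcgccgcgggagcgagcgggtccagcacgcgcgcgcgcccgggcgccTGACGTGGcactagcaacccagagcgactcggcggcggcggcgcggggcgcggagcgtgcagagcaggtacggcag
Kdelr3: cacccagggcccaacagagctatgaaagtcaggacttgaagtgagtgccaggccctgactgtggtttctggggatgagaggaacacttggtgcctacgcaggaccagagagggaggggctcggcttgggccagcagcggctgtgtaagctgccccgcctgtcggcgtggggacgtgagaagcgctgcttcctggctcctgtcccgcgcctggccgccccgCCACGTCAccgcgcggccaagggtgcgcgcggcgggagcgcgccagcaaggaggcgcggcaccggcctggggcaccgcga
Copb2: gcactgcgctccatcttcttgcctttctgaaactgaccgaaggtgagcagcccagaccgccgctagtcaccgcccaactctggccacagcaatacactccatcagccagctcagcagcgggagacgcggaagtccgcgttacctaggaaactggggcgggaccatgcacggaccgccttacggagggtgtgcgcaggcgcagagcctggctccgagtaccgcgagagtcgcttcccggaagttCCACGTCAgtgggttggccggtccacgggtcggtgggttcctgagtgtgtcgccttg
The remaining matches are shown with their flanks alone, 30 bases each, for Copb1 (chr7:114254690-114254719, reverse strand), Sec23a (chr12:59011993-59012022, reverse strand) and Sec16b (chr1:157506741-157506770, forward strand).
Copb1: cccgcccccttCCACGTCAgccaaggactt
Sec23a: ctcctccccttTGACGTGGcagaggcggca
Sec16b: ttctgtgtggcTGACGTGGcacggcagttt
Tmed3 (chr9:89704994-89705293, reverse strand), the member with the largest log2 fold change on the log2(RPKM + 1) scale, and Sar1b (chr11:51763413-51763712, forward strand), the member lower in both transgenic libraries, hold none of the 4 motifs in this window and are shown for comparison.
Tmed3: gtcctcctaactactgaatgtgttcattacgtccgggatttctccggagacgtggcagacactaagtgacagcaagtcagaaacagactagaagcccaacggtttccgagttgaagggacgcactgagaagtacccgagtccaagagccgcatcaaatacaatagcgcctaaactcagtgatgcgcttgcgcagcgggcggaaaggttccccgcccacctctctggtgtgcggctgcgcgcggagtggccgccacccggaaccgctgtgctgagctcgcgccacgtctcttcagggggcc
Sar1b: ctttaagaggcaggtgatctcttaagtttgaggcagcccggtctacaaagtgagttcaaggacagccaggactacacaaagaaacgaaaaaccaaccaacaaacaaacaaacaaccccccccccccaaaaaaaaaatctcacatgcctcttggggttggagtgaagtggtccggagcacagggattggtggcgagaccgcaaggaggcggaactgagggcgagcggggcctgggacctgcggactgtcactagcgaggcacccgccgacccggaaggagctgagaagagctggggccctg

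Libraries held 18815221 to 20053685 reads in genes. Thbs1 itself stood at 12900 and 15411 RPKM in transgenic muscle, against 8.61 and 12.2 RPKM in control muscle (RPKM, reads relative to the gene model's length and to the library total). It took 12.0% and 14.4% of the transgenic reads, which lowers the RPKM of every other gene in those libraries. Fibre markers such as Ckm and Acta1 were abundant in all 4 libraries. Pearson's r of log2(RPKM + 1) across the tested genes, which are not independent replicates, was 0.971 within the transgenic group, 0.977 within the control group and 0.927 to 0.942 between groups. Of 10015 genes tested with limma, 626 were higher in transgenic muscle (6.25%) and 122 were lower (1.22%), 748 in all (7.47%), at a Benjamini-Hochberg adjusted p under 0.05.

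Of the 40 members, 38 passed the filter of at least 1 RPKM in at least 2 libraries, and each of these reached 1 RPKM in at least 1 control library. In the limma test, 19 of the 38 rose, or 50%, against 6.25% of all tested genes. None fell at this threshold, while 1 of the 38, Sar1b, was lower at an unadjusted p under 0.05 (against 7.46% of all tested genes) and was called lower by limma-voom on the recovered reads. Limma-voom with median-of-ratios factors called 19 members higher and 1 lower, against 5.64% and 4.68% of all tested genes. The median log2 fold change of the members was 0.83, against 0.10 for all tested genes, and it was positive for 35 members, against 61.0% of all tested genes. Both transgenic libraries lay above both controls for 35 of the 38 tested members, against 38.4% of all tested genes, and below both for 1, against 19.7%. In whole-muscle RNA, more cells of a type and more RNA per cell cannot be told apart. Every called member kept a positive fold change in each of 12 alternative settings, but without control library 2 no member passed the threshold (0 of 38, against 1 of all tested genes). At an unadjusted p under 0.05 there were then 29 of the 38, against 19.8% of all tested genes. With median-of-ratios scaling, 10 members were higher, and the split over all genes moved to 501 higher and 247 lower (2.47%).

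**Figure D1:**
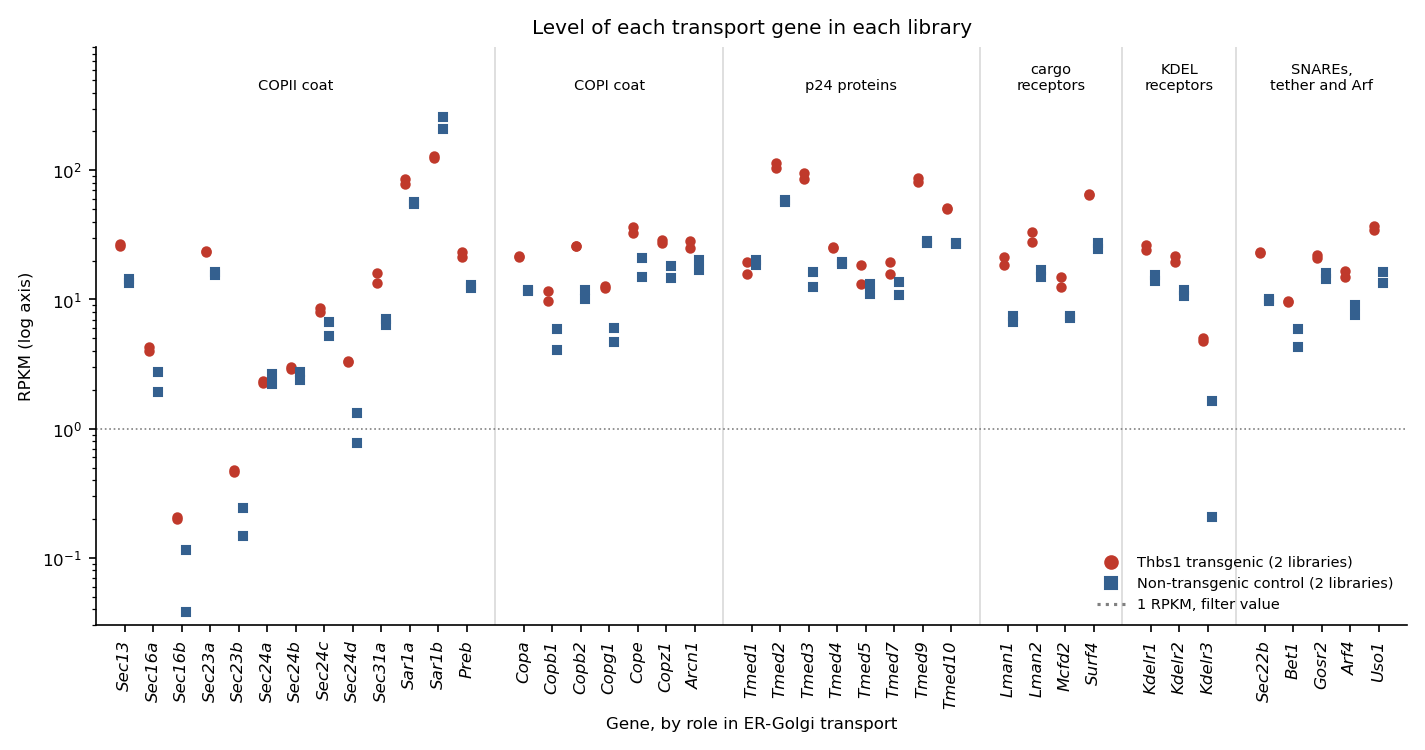
RPKM (log axis) of the 40 transport genes in each library, grouped by role, with Thbs1 transgenic libraries as circles left of the non-transgenic control libraries as squares. The transgenic points lie above the control points for most genes, while Sar1b shows the opposite order and Sec24a and Tmed1 overlap.

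By role, all 4 cargo receptors rose, with a median log2 fold change of 1.09. The COPI coat had 3 of 7 higher (median 0.92), the SNARE, tether and Arf genes 3 of 5 (0.85), the KDEL receptors 1 of 3 (0.84) and the p24 family 4 of 8 (0.69). The COPII coat had 4 of 11 tested members higher and the lowest median, 0.55. Differences between roles were not tested. The spread within a role was widest in the p24 family, where log2 fold changes ran from -0.14 to 2.58, and in the COPII coat, from -0.87 to 1.08. The COPI subunits stayed between 0.51 and 1.17.

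**Figure D2:**
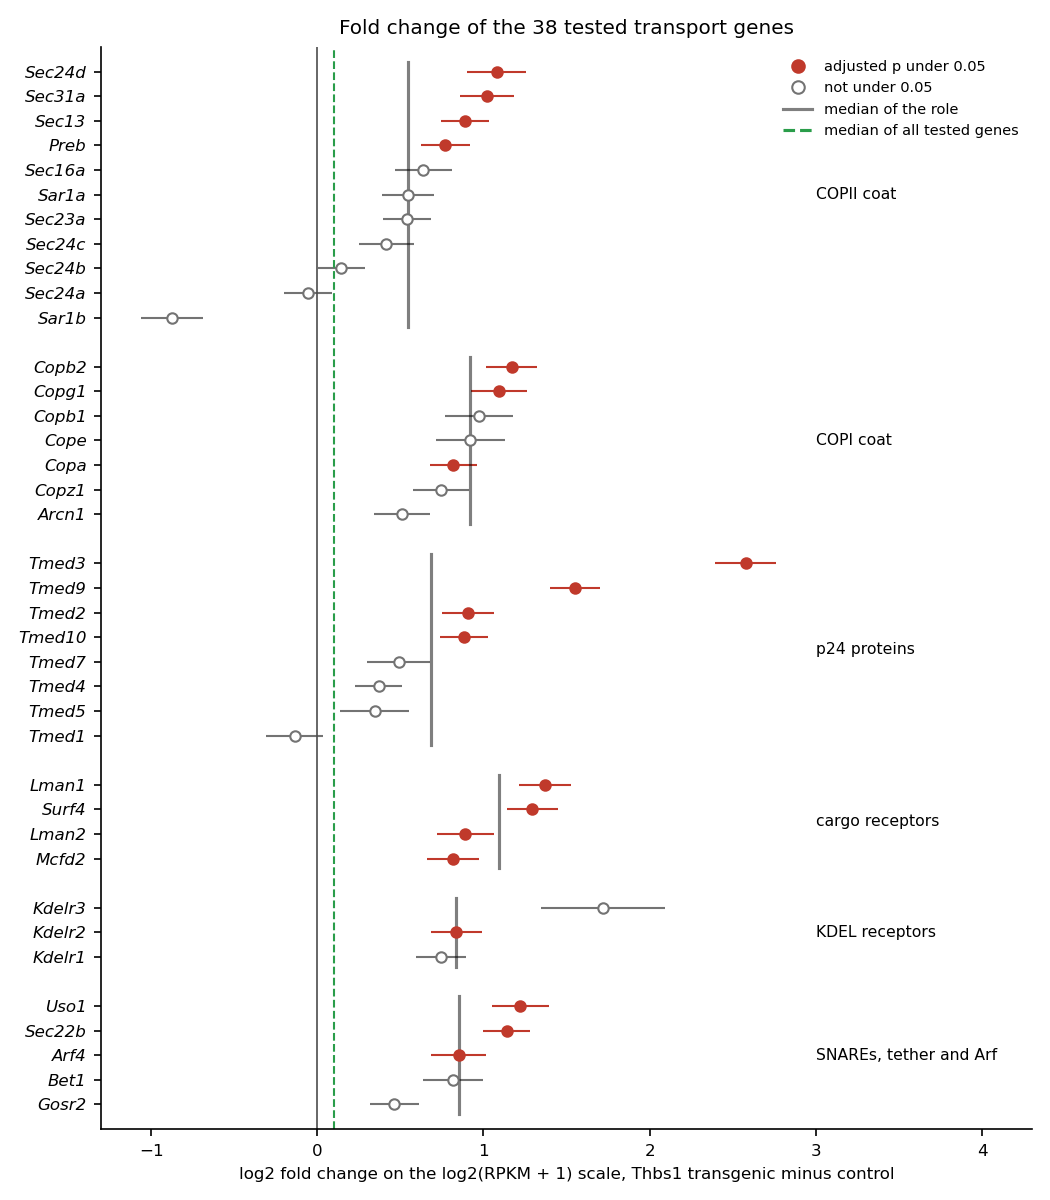
Log2 fold change of the 38 tested transport genes on the log2(RPKM + 1) scale, transgenic minus control, with bars of 1 SE, filled where the limma adjusted p was under 0.05. Grey lines mark the median of each role and the dashed line the median of all tested genes, 0.10, and Tmed3 lies farthest to the right at 2.58.

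In the COPII coat, the outer cage genes Sec13 and Sec31a, the exchange factor Preb and 1 cargo-binding subunit, Sec24d, rose, while the other Sec24 paralogues did not pass the test. Sec13 was at 26.2 and 26.9 RPKM in the transgenic libraries, against 14.5 and 13.3 RPKM in the control libraries. Sec13 is a cage subunit that also serves in the nuclear pore. Its libraries did not overlap between groups (log2 fold change 0.89, SE 0.15, limma adjusted p = 0.0326). Levels of Sec31a were 15.9 and 13.4 RPKM in transgenic muscle and 7.09 and 6.32 RPKM in control muscle. Sec31a is the cage partner of Sec13, and both transgenic libraries were above both controls (log2 fold change 1.02, SE 0.16, limma adjusted p = 0.0303). Sec31b, its paralogue in the further COPII list, was at 3.50 and 2.65 RPKM in transgenic muscle, against 6.50 and 3.999 RPKM in control muscle. Both transgenic libraries of Sec31b were below both controls, without passing (log2 fold change -0.59, SE 0.24, limma adjusted p = 0.192). In transgenic libraries Preb stood at 23.4 and 21.2 RPKM, and in control libraries at 12.3 and 13.0 RPKM. Preb, also called Sec12, is the ER exchange factor that loads Sar1 with GTP, and its groups did not overlap (log2 fold change 0.77, SE 0.15, limma adjusted p = 0.0451). The exons of Preb share 1575 bases with Abhd1 on the opposite strand, which averaged 10.4 RPKM, and without stated strandedness reads there cannot be told apart.

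Sec24d was the cargo-binding subunit that rose. Sec24d was at 3.32 and 3.26 RPKM in the transgenic libraries, against 1.32 and 0.779 RPKM in the control libraries. It had 464 and 450 reads in transgenic muscle, against 178 and 102 in control muscle. Both controls were lower, with control library 2 the lowest (log2 fold change 1.08, SE 0.18, limma adjusted p = 0.0326). The difference of mean RPKM was 3.14-fold, and the log2 fold change was 1.60 with a pseudocount of 0.1. Levels of Sec24a were 2.25 and 2.35 RPKM in transgenic muscle and 2.23 and 2.65 RPKM in control muscle. Sec24a had the smallest difference of the COPII genes on this scale, and its groups overlapped (log2 fold change -0.06, SE 0.14, limma adjusted p = 0.835). The 95% confidence interval of its log2 fold change ran from -0.42 to 0.31. With median-of-ratios scaling Sec24a was at -0.19 and Sec24b at 0.01, nearer to 0. In transgenic libraries Sec24b stood at 2.88 and 2.98 RPKM, and in control libraries at 2.74 and 2.37 RPKM. Sec24b did not overlap between groups but came close (log2 fold change 0.15, SE 0.14, limma adjusted p = 0.553). Sec24c was at 8.53 and 8.02 RPKM in the transgenic libraries, against 6.73 and 5.24 RPKM in the control libraries. Sec24c was highest among the Sec24 paralogues in every library, and its groups did not overlap (log2 fold change 0.42, SE 0.17, limma adjusted p = 0.186). Sec24a and Sec24b form a pair of close paralogues in sequence, as do Sec24c and Sec24d. The share of Sec24d in the summed RPKM of the 4 paralogues was 19.6% and 19.6% in transgenic muscle, against 10.1% and 7.05% in control muscle.

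The inner coat GTPase-activating subunit is encoded by Sec23a and Sec23b. Levels of Sec23a were 23.5 and 23.9 RPKM in transgenic muscle and 15.6 and 16.4 RPKM in control muscle. Both transgenic libraries were above both controls, without passing the test (log2 fold change 0.54, SE 0.14, limma adjusted p = 0.0849). In transgenic libraries Sec23b stood at 0.464 and 0.477 RPKM, and in control libraries at 0.242 and 0.149 RPKM. Sec23b was too low to test, with 252 and 256 reads in transgenic muscle, against 127 and 76 in control muscle. Its RPKM rest on a gene model of 27103 bases, against 6302 bases of GENCODE exons, so its level per length depends on the model. With GENCODE exon lengths it passed the filter at a log2 fold change of 0.72 (limma adjusted p = 0.0662). Sec16a was at 4.31 and 3.99 RPKM in the transgenic libraries, against 2.73 and 1.94 RPKM in the control libraries. Sec16a, the scaffold of ER exit sites, was higher in both transgenic libraries without passing (log2 fold change 0.64, SE 0.17, limma adjusted p = 0.088). Levels of Sec16b were 0.200 and 0.208 RPKM in transgenic muscle and 0.115 and 0.0378 RPKM in control muscle. This smaller paralogue of Sec16a was also under the filter, and its gene model of 19688 bases compares with 5410 bases of GENCODE exons.

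The Sar1 GTPases, which start coat assembly, stood in opposite orders between the groups. In transgenic libraries Sar1b stood at 129 and 124 RPKM, and in control libraries at 208 and 259.5 RPKM. Sar1b, the paralogue needed for chylomicron secretion in humans, was lower in both transgenic libraries and did not overlap with the controls. Its log2 fold change was -0.87 (SE 0.19, 95% confidence interval -1.34 to -0.40), and its limma adjusted p of 0.0563 missed the threshold. The call was made with limma-voom on recovered reads (adjusted p = 0.0372 with library totals and 0.0307 with median-of-ratios factors), and the authors' deposited table gives an adjusted p of 0.0142. It was not made by limma with median-of-ratios scaling (adjusted p = 0.0599), a replicate block (0.0895) or no filter (0.105). With Thbs1 left out of the library totals the log2 fold change of Sar1b was -0.67 (limma adjusted p = 0.0679). Sar1a was at 86.1 and 78.7 RPKM in the transgenic libraries, against 54.9 and 57.1 RPKM in the control libraries. Sar1a was above the controls in both transgenic libraries without passing (log2 fold change 0.55, SE 0.16, limma adjusted p = 0.096). The ratio of Sar1b to Sar1a was 1.505 and 1.57 in transgenic muscle, against 3.80 and 4.54 in control muscle. The size of this ratio depends on the gene models. They are 1853 bases for Sar1b and 3202 for Sar1a, against 1255 and 3740 bases of GENCODE exons. Sar1b and Sec24a lie head to head on chromosome 11, with 52 bases between their GENCODE starts, and had log2 fold changes of -0.87 and -0.06. Sar1b and Sar1a were the most abundant COPII members in every library. The summed RPKM of the 13 COPII genes was 326 and 309 in transgenic muscle, against 329 and 379 in control muscle. Without the Sar1 pair it was 111 and 107 in transgenic muscle, against 65.5 and 62.2 in control muscle.

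In the COPI coat all 7 subunits were measured, and in each the transgenic libraries lay above the controls. Their summed RPKM was 165 and 155 in transgenic muscle, against 89.0 and 82.8 in control muscle. Levels of Copb2 were 25.9 and 26.0 RPKM in transgenic muscle and 11.9 and 10.1 RPKM in control muscle. Copb2, the beta-prime subunit, had the largest log2 fold change of the coat (log2 fold change 1.17, SE 0.15, limma adjusted p = 0.0215). In transgenic libraries Copg1 stood at 12.2 and 12.8 RPKM, and in control libraries at 6.06 and 4.67 RPKM. Copg1 encodes a gamma subunit, which binds cargo signals and Arf, and its groups were well apart (log2 fold change 1.09, SE 0.17, limma adjusted p = 0.0298). Copa was at 21.6 and 21.4 RPKM in the transgenic libraries, against 11.9 and 11.6 RPKM in the control libraries. Copa, the alpha subunit, forms the outer layer with the beta-prime and epsilon subunits, and its libraries within a group were nearly equal (log2 fold change 0.82, SE 0.14, limma adjusted p = 0.0354). Levels of Copb1 were 11.5 and 9.76 RPKM in transgenic muscle and 5.90 and 4.07 RPKM in control muscle. In transgenic libraries Cope stood at 36.4 and 32.6 RPKM, and in control libraries at 15.0 and 20.98 RPKM. Copz1 was at 28.7 and 27.4 RPKM in the transgenic libraries, against 18.2 and 14.6 RPKM in the control libraries. The beta subunit Copb1, the epsilon subunit Cope and the zeta subunit Copz1 had log2 fold changes of 0.97, 0.92 and 0.74, and limma adjusted p of 0.0547, 0.0623 and 0.0641. Levels of Arcn1 were 28.2 and 25.0 RPKM in transgenic muscle and 20.1 and 16.8 RPKM in control muscle. Arcn1, the delta subunit, had the smallest difference (log2 fold change 0.51, SE 0.17, limma adjusted p = 0.13). All 7 were higher at an unadjusted p under 0.05, against 20.4% of all tested genes.

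The p24 family split into 4 members that rose and 4 that did not pass the test. In transgenic libraries Tmed3 stood at 94.7 and 85.9 RPKM, and in control libraries at 16.2 and 12.6 RPKM. Tmed3, on chromosome 9 from 89699206 to 89705068 on the reverse strand, is a gamma-type p24 protein, and its transgenic libraries were far above both controls. The ratio of mean RPKM was 6.27, the largest among the members (log2 fold change 2.58, SE 0.18, limma adjusted p = 0.0078). Tmed9 was at 86.4 and 81.0 RPKM in the transgenic libraries, against 28.4 and 27.5 RPKM in the control libraries. Tmed9, an alpha-type p24 protein, came next within the p24 family at a ratio of 3.0 and no overlap (log2 fold change 1.55, SE 0.15, limma adjusted p = 0.0127). Levels of Tmed2 were 114 and 105 RPKM in transgenic muscle and 58.6 and 57.1 RPKM in control muscle. Tmed2, the single beta-type member in mammals, did not overlap between groups (log2 fold change 0.91, SE 0.16, limma adjusted p = 0.0355). In transgenic libraries Tmed10 stood at 51.3 and 49.9 RPKM, and in control libraries at 26.8 and 27.1 RPKM. Tmed10, the single delta-type member in mammals, had nearly equal libraries within each group (log2 fold change 0.88, SE 0.15, limma adjusted p = 0.0329). Each of the 4 p24 subfamilies met in mammalian p24 complexes was thus represented by 1 gene among those that rose.

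The other p24 genes did not pass. Tmed7 was at 19.4 and 15.9 RPKM in the transgenic libraries, against 13.7 and 10.9 RPKM in the control libraries. Levels of Tmed4 were 25.1 and 25.3 RPKM in transgenic muscle and 18.9 and 19.7 RPKM in control muscle. Neither overlapped between groups. Tmed7, a gamma-type member, and Tmed4, an alpha-type member, had log2 fold changes of 0.49 and 0.37 (limma adjusted p = 0.174 and 0.173). In transgenic libraries Tmed5 stood at 18.4 and 13.3 RPKM, and in control libraries at 11.1 and 13.2 RPKM. Transgenic library 2 was barely above control library 2 for this gamma-type member (log2 fold change 0.34, SE 0.21, limma adjusted p = 0.347). Tmed1 was at 19.4 and 15.7 RPKM in the transgenic libraries, against 18.4 and 20.2 RPKM in the control libraries. Tmed1, another gamma-type member, had the smallest difference of the p24 genes on this scale, and its groups overlapped (log2 fold change -0.14, SE 0.17, limma adjusted p = 0.651). The 95% confidence interval of its log2 fold change ran from -0.57 to 0.29. With median-of-ratios scaling Tmed1 was at -0.31, farther from 0 than Tmed5 at 0.17. Within the gamma-type genes, the range thus ran from Tmed1 at -0.14 to Tmed3 at 2.58 on the log2 scale. Tmed3 made up 22.1% and 21.9% of the summed RPKM of the 8 members in transgenic muscle, against 8.43% and 6.68% in control muscle. The sum itself was 429 and 391.9 RPKM in transgenic muscle, against 192 and 188 in control muscle.

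All cargo receptors rose. Levels of Lman1 were 21.3 and 18.5 RPKM in transgenic muscle and 7.45 and 6.66 RPKM in control muscle. Lman1 is a mannose-binding lectin that carries glycoproteins out of the ER, and its groups were clearly separate (log2 fold change 1.37, SE 0.16, limma adjusted p = 0.017). In transgenic libraries Mcfd2 stood at 14.9 and 12.5 RPKM, and in control libraries at 7.23 and 7.45 RPKM. Mcfd2, the soluble calcium-binding partner of Lman1 in the export of coagulation factors, had the smallest difference of the 4 and still did not overlap (log2 fold change 0.82, SE 0.16, limma adjusted p = 0.0444). Surf4 was at 66.1 and 64.4 RPKM in the transgenic libraries, against 27.4 and 24.7 RPKM in the control libraries. Surf4, a membrane receptor for soluble cargo such as lipoproteins, was the most abundant receptor in every library (log2 fold change 1.29, SE 0.15, limma adjusted p = 0.0175). Levels of Lman2 were 33.5 and 27.6 RPKM in transgenic muscle and 17.0 and 14.9 RPKM in control muscle. Lman2, a lectin of the Golgi and intermediate compartment, was above both controls in each transgenic library (log2 fold change 0.89, SE 0.17, limma adjusted p = 0.0465). Lman1 and Surf4 were among 4 members, with Tmed3 and Tmed9, whose call was kept in 11 of the 12 alternative settings. Lman2 kept its call in 5 of them and Mcfd2 in 4.

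KDEL receptors bind the C-terminal signal of ER chaperones in the Golgi. In transgenic libraries Kdelr2 stood at 21.9 and 19.7 RPKM, and in control libraries at 11.8 and 10.6 RPKM. Kdelr2 passed the test, and its groups did not overlap (log2 fold change 0.84, SE 0.15, limma adjusted p = 0.0404). Kdelr1 was at 24.1 and 26.4 RPKM in the transgenic libraries, against 15.4 and 14.0 RPKM in the control libraries. Kdelr1, the most abundant of the 3, narrowly missed the threshold (log2 fold change 0.74, SE 0.15, limma adjusted p = 0.0505). Levels of Kdelr3 were 5.01 and 4.77 RPKM in transgenic muscle and 1.65 and 0.206 RPKM in control muscle. Kdelr3 had 207 and 195 reads in transgenic muscle, against 66 and 8 in control muscle. Control library 2 was far below control library 1, and the gene missed the threshold (log2 fold change 1.72, SE 0.37, limma adjusted p = 0.0592). Without control library 2 the log2 fold change was 1.15, and without control library 1 it was 2.29. With a pseudocount of 0.1 it was 2.77, above Tmed3 at 2.65, but Kdelr3 did not pass there (limma adjusted p = 0.110). Limma-voom did not call Kdelr3 either (adjusted p = 0.0665 with library totals and 0.0594 with median-of-ratios factors). The authors' deposited table gives an adjusted p of 3.78e-05. The share of Kdelr3 in the summed RPKM of the 3 receptors was 9.81% and 9.39% in transgenic muscle, against 5.74% and 0.832% in control muscle.

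**Figure D3:**
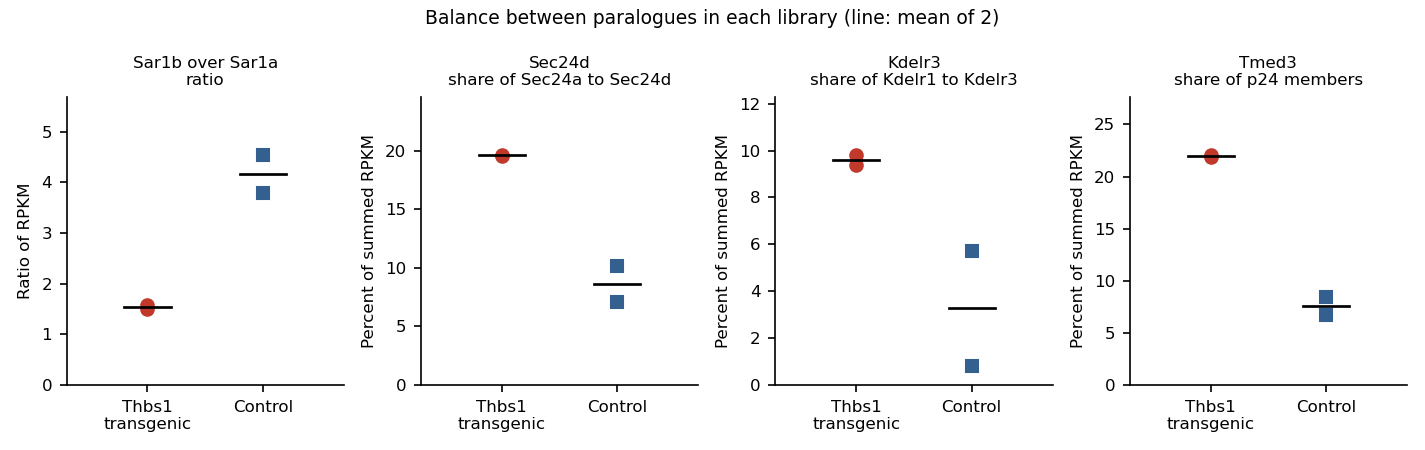
Balance between paralogues in each library as a ratio of RPKM (Sar1b over Sar1a) or a percent of summed RPKM (Sec24d, Kdelr3 and Tmed3), with Thbs1 transgenic circles left of control squares and a line at each mean. The 2 groups do not overlap in any panel, and the Sar1 ratio is below 2 in both transgenic libraries and above 3 in both controls.

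The plot of paralogue balance shows 4 measures, of which the Tmed3 share was chosen after its values were seen. Sec24d and Kdelr3 had the largest log2 fold changes of their paralogue sets, so the lack of overlap in the plot is no test. The size of each ratio or share also depends on the gene model lengths behind RPKM. With 2 libraries a group, an exact permutation test of such a measure cannot give a two-sided p below 0.333, which each of the 4 had.

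Of the genes for docking and fusion, 3 of 5 rose. In transgenic libraries Uso1 stood at 37.4 and 34.2 RPKM, and in control libraries at 16.3 and 13.3 RPKM. Uso1 encodes a long tether between vesicles and Golgi membranes, and its groups did not overlap (log2 fold change 1.22, SE 0.17, limma adjusted p = 0.0234). Sec22b was at 23.0 and 23.1 RPKM in the transgenic libraries, against 10.2 and 9.70 RPKM in the control libraries. Sec22b is an R-SNARE of both transport directions, with nearly equal libraries within each group (log2 fold change 1.14, SE 0.14, limma adjusted p = 0.0189). Levels of Arf4 were 16.7 and 14.8 RPKM in transgenic muscle and 9.09 and 7.54 RPKM in control muscle. Arf4 is a small GTPase of the early Golgi, and its transgenic libraries were higher than both controls (log2 fold change 0.85, SE 0.16, limma adjusted p = 0.0459). In transgenic libraries Bet1 stood at 9.61 and 9.76 RPKM, and in control libraries at 4.32 and 5.91 RPKM. Bet1, a SNARE that pairs with Sec22b, had a log2 fold change of 0.82 (limma adjusted p = 0.0592). Gosr2 was at 22.2 and 20.8 RPKM in the transgenic libraries, against 16.1 and 14.5 RPKM in the control libraries. Gosr2, the Golgi SNARE also named membrin, had the smallest difference of this role (log2 fold change 0.46, SE 0.15, limma adjusted p = 0.122).

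The authors' deposited table, at an adjusted p under 0.1, lists 22 of the 40 members as higher (5.55% of 17769 genes) and Sar1b as lower (3.64%). By role these were 4 of 13 COPII genes, 5 of 7 COPI genes, 4 of 8 p24 genes, all 4 cargo receptors, 2 of 3 KDEL receptors and 3 of 5 SNARE, tether and Arf genes. Sec23b, under the filter here, is among them with an adjusted p of 0.0459 in the authors' deposited table.

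Further genes of the same route, 82 in 5 lists, were measured in the same fit. These lists, like the members, were chosen with earlier results of these data known. Of 73 tested, 6 rose, or 8.22%, against 6.25% of all tested genes, with a median log2 fold change of 0.29. The difference between these lists and the members was not tested. None fell by limma at the threshold, and limma-voom called 1 lower, Arfgap2. At an unadjusted p under 0.05, 2 of the 73 were lower, against 7.46% of all tested genes. Levels of Arfgap3 were 11.8 and 11.9 RPKM in transgenic muscle and 2.13 and 1.24 RPKM in control muscle. Arfgap3, a GTPase-activating protein that ends the Arf cycle on COPI vesicles, had the largest log2 fold change of these lists (log2 fold change 2.28, SE 0.20, limma adjusted p = 0.0113). In transgenic libraries Arfgap2 stood at 13.1 and 12.1 RPKM, and in control libraries at 20.7 and 21.2 RPKM. Its relative Arfgap2 was lower in both transgenic libraries without passing (log2 fold change -0.69, SE 0.14, limma adjusted p = 0.0532). Copz2 was at 29.1 and 31.9 RPKM in the transgenic libraries, against 13.9 and 13.2 RPKM in the control libraries. Copz2, the second zeta subunit of coatomer, also rose, and its difference from Copz1 was not tested (log2 fold change 1.11, SE 0.15, limma adjusted p = 0.0217). Levels of Bcap31 were 29.7 and 26.9 RPKM in transgenic muscle and 13.9 and 15.6 RPKM in control muscle. Bcap31 is an ER membrane protein that guides the export of other membrane proteins (log2 fold change 0.90, SE 0.16, limma adjusted p = 0.0363). In transgenic libraries Bet1l stood at 14.3 and 12.4 RPKM, and in control libraries at 5.59 and 4.89 RPKM. Bet1l is the Golgi relative of Bet1 (log2 fold change 1.20, SE 0.16, limma adjusted p = 0.0214). Gorasp2 was at 26.1 and 27.3 RPKM in the transgenic libraries, against 15.2 and 12.6 RPKM in the control libraries. Gorasp2 is a Golgi stacking protein (log2 fold change 0.90, SE 0.16, limma adjusted p = 0.0391). Levels of Trappc6a were 1.95 and 2.30 RPKM in transgenic muscle and 0.536 and 0.595 RPKM in control muscle. Trappc6a, a subunit of the TRAPP tether, was under 1 RPKM in both controls and entered the test through the transgenic libraries (log2 fold change 0.996, SE 0.14, limma adjusted p = 0.024). Per list, the tested genes that rose were 0 of 5 further COPII genes and 2 of 10 COPI and Arf cycle genes. Elsewhere they were 1 of 12 p24 relatives and cargo adaptors, 1 of 12 SNAREs, and 2 of 34 tethers and Rab GTPases. Of the 5 further COPII genes, 3 were higher at an unadjusted p under 0.05, against 20.4% of all tested genes. Limma-voom called 0 of the 5. Next in order of p in their lists were Mia3, Sec23ip and Tfg (log2 fold changes 0.58, 0.67 and 0.40), Yif1a and Ergic3 (0.68 and 0.75), Stx5a and Stx18 (0.72 and 0.93) and Golgb1 (0.74), which did not pass.

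**Figure D4:**
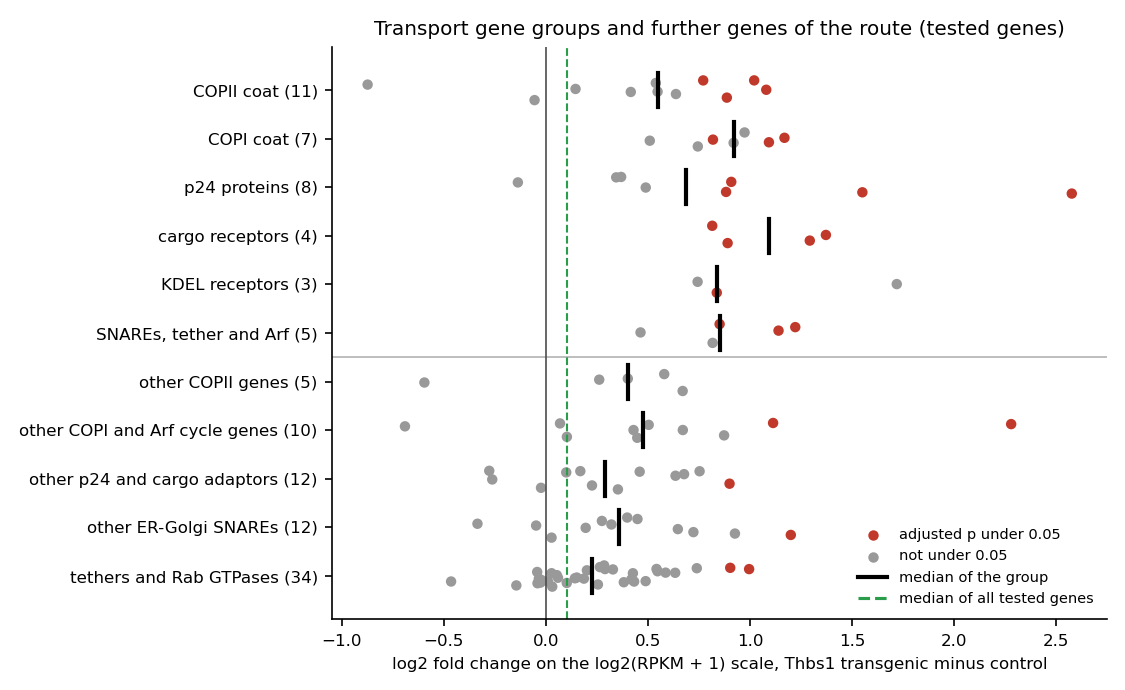
Log2 fold change on the log2(RPKM + 1) scale, transgenic minus control, for the tested members by role (upper rows) and for further genes of ER to Golgi transport by list (lower rows), red where the limma adjusted p was under 0.05. Black bars are medians, which lie between 0.55 and 1.09 for the roles and between 0.23 and 0.48 for the further lists, against 0.10 for all tested genes (dashed line).

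Marker lists of several cell types were read beside these results, and they did not move alike. Of 13 tested macrophage markers, 11 rose, and the summed RPKM of the 15 listed was 283 and 257 in transgenic muscle, against 86.3 and 55.5 in control muscle, with Cx3cr1 listed at 0 in control library 2. Of the tested ones, 4 were under 1 RPKM in both controls and entered through the transgenic libraries. Of 13 tested fibroblast and fibro-adipogenic markers, 4 rose, with a sum over 14 listed of 849 and 807 RPKM in transgenic muscle, against 707 and 381 in control muscle, and Tcf21 listed at 0 in all 4. Of 9 plasma and B cell markers, 3 could be tested and 2 rose, Mzb1 and Igj, both of which were under 1 RPKM in both controls and entered the test through the transgenic libraries. Their sum was 22.2 and 17.2 RPKM in transgenic muscle, against 2.74 and 1.61 in control muscle, while the B cell gene Ms4a1 was listed at 0 in all 4. Of 12 skeletal muscle fibre markers, 10 had a negative log2 fold change and 0 passed in limma. At an unadjusted p under 0.05, 2 were higher and 6 lower, against 20.4% and 7.46% of all tested genes. Limma-voom with library totals called 1 higher and 3 lower, against 614 and 171 of 10015 tested genes. The fibre markers summed to 25592 and 29385 RPKM in transgenic muscle, against 38593 and 43885 in control muscle. Adipocyte markers summed to 976 and 122 RPKM in transgenic muscle, against 167 and 219 in control muscle, so transgenic library 1 stood apart. Endothelial markers summed to 50.0 and 30.7 RPKM in transgenic muscle, against 47.7 and 37.0 in control muscle. Limma called 0 genes of either list, and limma-voom called 0. At an unadjusted p under 0.05 there were 0 endothelial genes and 1 adipocyte gene, Plin4, which was lower (against 7.46% of all tested genes). Plin4 was at 35.1 and 18.2 RPKM in transgenic muscle, against 47.8 and 75.2 in control muscle. The other 4 tested adipocyte markers had a positive log2 fold change. The part of these cell types in the transport gene results was not tested. Without transgenic library 1, 8 members were higher, and all 19 called members kept a positive fold change.

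Besides Preb, exons of 11 members overlap a gene on the opposite strand, among them the called genes Copa, Copg1, Surf4, Tmed10 and Arf4. Tmed7 shares 838 exon bases with Ticam2 on the same strand.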

How the data were processed

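Quadriceps RNA was sequenced in 2 Thbs1 transgenic and 2 non-transgenic control libraries, grouped by sample title. Per the submitters' processing notes, the authors' tools were bcl2fastq, TopHat and edgeR on build mm10, with no versions stated. The authors deposited 1 RPKM column per library. Base means from the authors are a signal, the mean of reads over size factors, and their table also holds a ratio of control to transgenic base means with a p-value and an adjusted p-value. RPKM and base means together gave whole reads for 100.0% of values, within 0.02 of a read. Depth was 18815221 to 20053685 reads in genes.

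A gene was tested if 2 or more libraries reached 1 RPKM (10015 genes). The test ran on log2(RPKM + 1) in limma 3.58.1 (R 4.3.3) using its variance trend, two-sided, without covariates, and with Benjamini-Hochberg adjustment over all tested genes at 0.05. Fold changes are transgenic minus control on that scale, which understates changes of low genes. A count model planned for whole reads was replaced by limma-voom. In 5 simulations at the depths of these libraries, with 200 changed genes apiece, 23.6% of genes changed 2-fold and 97.5% of those changed 4-fold were called, and 0.128% of unchanged genes. The simulations assumed a dispersion of 0.05 for every gene, not estimated from these libraries, and built in no Thbs1 excess. Their rates may therefore differ from those in the real data. Every member was accounted for by role, with all 4 values for called members, for the member of each role with the smallest change and for paralogue sets, and with up to 3 genes of smallest p from each further list. Members and lists were chosen with earlier results of these data known. Libraries of a group differed beyond sampling noise (chi-square per degree of freedom 48.0 for the transgenic pair and 36.8 for the control pair). Gene positions and exon lengths are from GENCODE M21 (GRCm38). Alternatives were a pseudocount of 0.1, no filter, other scalings, a replicate block, an adjusted p of 0.1, leaving out each library, limma-voom and GENCODE exon lengths.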

Additional observations from a re-analysis of the deposited data

How the results depend on the processing

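The 19 called members kept a positive fold change in all 12 settings, and 0 kept the call in each, since leaving out control library 2 removed all. Counts below are genes called higher unless said otherwise. Without the filter on low values, 5 members were called, with 0 COPII, 0 COPI, 2 p24, 2 cargo receptor, 0 KDEL receptor and 1 SNARE, tether or Arf gene, 1 further pathway gene, and 135 higher and 11 lower of all genes. With median-of-ratios scaling there were 10 members, with 2 COPII, 2 p24, 2 cargo receptor and 0 KDEL receptor genes, 1 further pathway gene was lower, and 247 of all genes were lower. With Thbs1 left out of the library totals there were 30 members, with 7 COPII, 7 COPI, 3 KDEL receptor and 5 SNARE, tether or Arf genes, 21 further pathway genes, and 1458 of all genes. With the replicate number as a block there were 11 members, with 2 COPII, 2 p24, 2 cargo receptor and 0 KDEL receptor genes, and 64 of all genes were lower. Deviations of same-numbered libraries correlated at 0.0742, and the labels do not state whether libraries with the same number form a pair. A pseudocount of 0.1 left 2 cargo receptors. At an adjusted p under 0.1 there were 7 COPII, 6 COPI and 3 KDEL receptor genes, 1 member lower, 18 further pathway genes higher and 1 lower, and 1303 higher and 402 lower of all genes. Limma-voom called 1 member and 1 further pathway gene lower with either scaling, 2 KDEL receptors with library totals, and 469 of all genes lower with median-of-ratios factors.

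Leaving out each library gave 0 to 10 members, 0 to 2 COPII, 0 to 2 COPI, 0 to 2 p24, 0 to 3 cargo receptor, 0 to 1 KDEL receptor and 0 to 2 SNARE, tether or Arf genes, 0 to 4 further pathway genes, and 1 to 593 higher and 0 to 104 lower of all genes. Each low end came without control library 2, for the COPII genes also without transgenic library 1, and for the KDEL receptors also without either transgenic library. There the single library of a group takes its variance from the other group. Sec24a turned to a log2 fold change of 0.0903 with Thbs1 left out of the totals, and ran from -0.143 to 0.0332 when libraries were left out, with the positive value without control library 2. Tmed1 turned to 0.0568 with Thbs1 left out of the totals, and ran from -0.279 to 0.00515, with the positive value without transgenic library 2. The cause was not tested. The median of all genes was 0.10, against -0.04 with median-of-ratios scaling and 0.26 with Thbs1 left out. The planned edgeR alternative was not run, and limma-voom on the recovered reads took its place. With 2 libraries a group, most 2-fold changes were not called in simulation, under its assumed dispersion.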
